A study of Mus musculus with 12 samples.

Results

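The Usp17-like genes of the mouse encode a group of closely related deubiquitinases, and 5 of them, Usp17la, Usp17lb, Usp17lc, Usp17ld and Usp17le, were followed through RNA-seq of TPS cells and EPS cells. They were chosen by symbol among the 55401 genes counted, with earlier results of these data known. TPS cells are totipotent potential stem cells, which the study keeps in the CPEC condition of CD1530 (a RARγ agonist), VPA (a histone deacetylase inhibitor), EPZ004777 (a DOT1L inhibitor) and a GSK3 inhibitor. The labels call the TPS medium VCED. EPS cells are extended pluripotent stem cells kept in LCDM medium, and both kinds of cell grew on feeder cells, which were not separated from them by any step given in the sources used here. There were 3 lines of each kind and 2 technical replicates of each line, 12 libraries in all, with 13676051 to 21821707 counts per library. No strain, genotype or time in culture is given for these lines, nor whether a TPS line came from an EPS line. For TPS cells in general, the study used 2-cell embryos of B6-Tg mice, or converted EPS or ES cells over 5 passages. It does not tie these routes to the lines used here.

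A ubiquitin-specific protease removes ubiquitin from other proteins with a catalytic cysteine and histidine, and can thereby spare them from the proteasome or alter their activity. The first mouse Usp17-like genes were described as DUB genes, induced by cytokines in blood cell lines, and their human counterpart USP17, also called DUB3, is known for deubiquitinating cell cycle and signalling proteins such as CDC25A and RCE1. The mouse copies stand in a gene cluster among olfactory receptor genes, and their transcripts are known from 2-cell embryos and from 2-cell-like cells, which is the stage of the embryo to which TPS cells are compared.

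Every copy had reads in every TPS library and almost none in EPS libraries. Over the 6 TPS libraries the 5 genes held 6057 counts, between 87 and 493 for a gene in a library. Over the 6 EPS libraries they held 8 counts, 25 of the 30 values were 0 and the largest was 2. RNA from bulk cultures does not tell a lower share of expressing cells from less RNA in each cell.

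All 5 genes lie on chromosome 7 in a stretch of 1610 kb, in GENCODE M21 coordinates of build GRCm38. Usp17ld (ENSMUSG00000057321.2, chr7:103249737-103252505, minus strand) and Usp17lc (ENSMUSG00000058976.4, chr7:103415072-103419880, plus strand) form one pair, 163 kb apart. Usp17le (ENSMUSG00000043073.10, chr7:104768049-104777470, minus strand), Usp17lb (ENSMUSG00000062369.2, chr7:104840257-104842603, minus strand) and Usp17la (ENSMUSG00000054568.7, chr7:104857009-104862667, plus strand) form a second group, with 62.8 kb between Usp17le and Usp17lb and 14.4 kb between Usp17lb and Usp17la. A gap of 1350 kb separates Usp17lc from Usp17le. RefSeq gives Usp17la the synonym Dub1, Usp17lb Dub1a, Usp17lc Dub2, Usp17ld Dub2a and Usp17le Dub3.

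The coding sequences lie in 2 or 3 exons and are much alike. Usp17la has 526 codons, Usp17lb 467, Usp17lc and Usp17ld 545 each and Usp17le 540, read from the longest annotated coding transcript. Pairs of copies were 90.7% to 98.4% identical over the aligned coding bases and 83.7% to 96.9% over the translated residues. Usp17lc and Usp17ld were the most alike pair on both measures. The catalytic cysteine was found at codon 60 in Usp17la, Usp17lc and Usp17ld, at codon 59 in Usp17lb and at codon 94 in Usp17le, and the catalytic histidine at codon 307 in the first 3, 306 in Usp17lb and 341 in Usp17le. All copies counted here thus kept both residues. The stretch around the cysteine codon is shown because it is the active site that the copies share, with the cysteine codon in capitals, 5′ to 3′ on the coding strand of the GENCODE M21 transcripts.
Usp17la: acaggcaacagcTGCtacctgaatgca
Usp17lb: acaggcaacagcTGCtacctgaatgca
Usp17lc: acaggcaacagcTGCtacctgaatgca
Usp17ld: acaggcaacagcTGCtacctgaatgca
Usp17le: acaggcaacagcTGCtacctgaacgca

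The likeness bears on what a count of a single copy means, since a read that lies in a shared stretch cannot be placed by its own bases. The paper gives paired-end sequencing, so a mate outside the stretch may place some of these reads. Of all 100-base stretches of its longest transcript, 96.2% were found in no other annotated transcript for Usp17la, 91.3% for Usp17le, 89.4% for Usp17lb, 67.7% for Usp17lc and 60.5% for Usp17ld. Usp17lc and Usp17ld each shared 745 stretches with another copy. The division of reads between Usp17lc and Usp17ld is therefore the least certain, while Usp17la is nearly always distinguishable. How reads with several possible places were counted is not given in the sources used here, so the sum of the 5 genes is reported beside each copy.

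RefSeq promoter windows, 250 bases before to 50 bases after the start site in build GRCm38.p6, were found for 4 of the 5 genes, Usp17la, Usp17lb, Usp17lc and Usp17ld. Pairs of windows were 89.5% to 96.8% identical over their aligned bases. A stretch of 106 bases that could be lined up in all 4 without a gap is printed because all 4 genes were higher in TPS than in EPS lines, and 95 of its 106 columns held the same base in every copy. Capitals mark the letters ATTGG, which read CCAAT on the opposite strand, and the 6 letters where a TATA box stands or would stand. Each stretch is written 5′ to 3′ on the strand of its gene. The stretches are chr7:104856890-104856995 on the plus strand for Usp17la, chr7:104842589-104842694 on the minus strand for Usp17lb, chr7:103416528-103416633 on the plus strand for Usp17lc and chr7:103252590-103252695 on the minus strand for Usp17ld.
Usp17la: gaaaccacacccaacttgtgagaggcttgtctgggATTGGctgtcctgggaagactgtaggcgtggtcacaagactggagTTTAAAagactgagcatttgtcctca
Usp17lb: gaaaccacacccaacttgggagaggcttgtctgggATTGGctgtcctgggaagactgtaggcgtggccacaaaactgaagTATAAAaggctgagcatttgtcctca
Usp17lc: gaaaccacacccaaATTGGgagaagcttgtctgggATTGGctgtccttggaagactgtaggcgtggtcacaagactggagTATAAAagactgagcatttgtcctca
Usp17ld: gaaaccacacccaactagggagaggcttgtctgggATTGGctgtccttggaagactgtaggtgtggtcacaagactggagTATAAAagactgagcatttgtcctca

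Each motif was searched as plain letters on both strands of the whole windows. TATAAA, the letters of the TATA box that positions transcription starts, stood in the windows of Usp17lb, Usp17lc and Usp17ld and in 13.6% of 32851 windows over all genes. The Usp17la window did not hold these letters and had TTTAAA at the aligned place. The end of the TATA letters lay 25 bases before the RefSeq start of Usp17lb, 82 for Usp17lc and 104 for Usp17ld, and the end of TTTAAA lay 40 bases before that of Usp17la. CCAAT, bound by NF-Y and chosen for the search after the sequences were seen, was in all 4 windows and in 37.4% of all windows. GATTCAATC, a core of the motif of DUX, the transcription factor that switches on genes of the 2-cell stage, was in none of the 4 and in 0.149% of all. AGGTCA, a short site of nuclear receptors such as retinoic acid receptors, was in none of the 4 and in 16.3% of all, and GGATTA, a site of paired-type homeodomain factors, in none and in 7.06%. The stretch of Usp17lc lies inside its GENCODE model, which starts upstream of the RefSeq start. That of Usp17lb overlaps the first bases of its GENCODE model, which also starts upstream of the RefSeq start. Those of Usp17la and Usp17ld lie upstream of their GENCODE models.

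The levels are given first as CPM, the counts of a gene as a rate per library size after TMM scaling. Usp17la measured 14.6 and 14.5 CPM in the technical replicates of TPS line 1, 7.76 and 4.86 in those of line 2, and 8.51 and 7.63 in those of line 3. In EPS libraries it was at 0 except for 0.126 CPM in the first replicate of line 3. TPS line 1 stood above the other TPS lines, and the groups did not overlap.

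Usp17lb measured 11.2 and 12.7 CPM in TPS line 1, 6.87 and 6.76 in line 2 and 7.28 and 8.38 in line 3. Its only EPS value above 0 was 0.0798 CPM in the first replicate of line 1, which is 1 count. As for Usp17la, line 1 was the highest TPS line and every TPS library lay above every EPS library.

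Usp17le was the most abundant copy, at 23.2 and 21.8 CPM in TPS line 1, 15.3 and 15.2 in line 2 and 17.8 and 16.6 in line 3. In EPS cells it was at 0.11 CPM in the second replicate of line 1 and 0.0525 in the second replicate of line 2, and at 0 in the other 4 libraries. Line 1 was again the highest, and repeats within a TPS line differed by at most 1.07-fold.

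Usp17lc measured 11.1 and 10.1 CPM in TPS line 1, 13.4 and 11.7 in line 2 and 14.2 and 12.6 in line 3, against 0.104 CPM in the second replicate of EPS line 3 and 0 in the other EPS libraries. Here line 1 was the lowest TPS line. Usp17ld measured 6.13 and 5.85 CPM in TPS line 1, 5.75 and 5.88 in line 2 and 5.65 and 6.63 in line 3, and no read was counted on it in any EPS library. Its TPS lines did not differ beyond the spread of technical replicates.

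**Figure D1:**
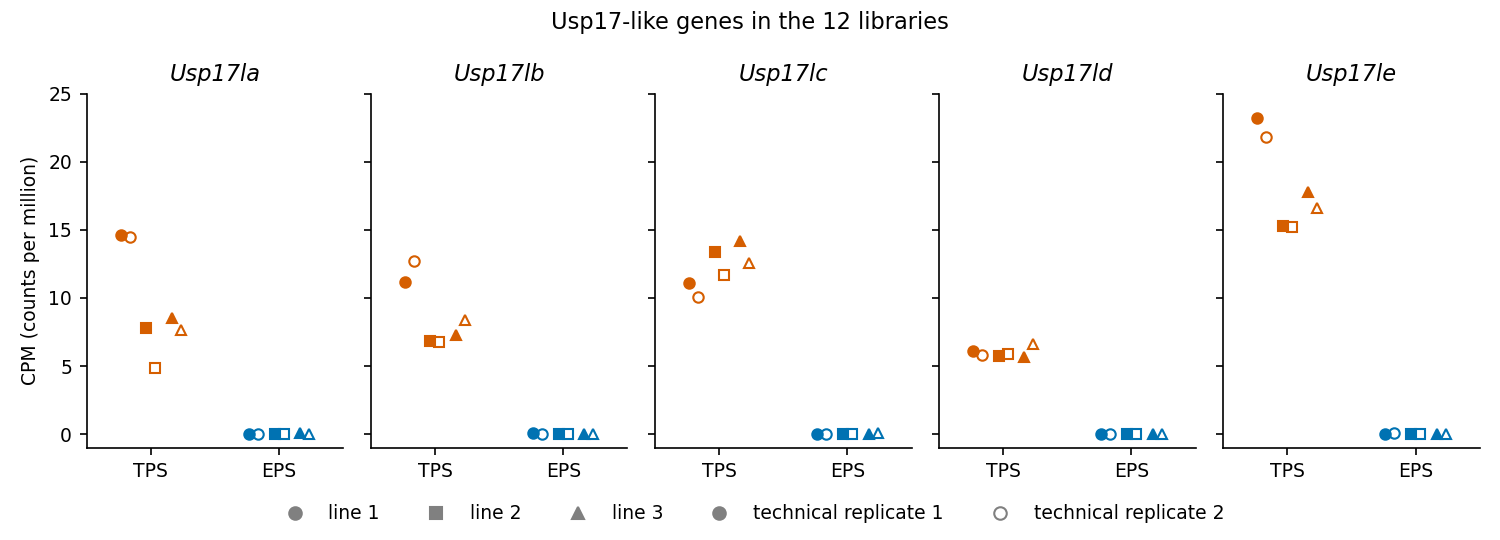
CPM (y axis) of each Usp17-like gene in the 6 TPS and 6 EPS libraries, with lines 1, 2 and 3 as circles, squares and triangles and technical replicates 1 and 2 filled and open. All TPS libraries lie above all EPS libraries in every panel, with TPS line 1 highest for Usp17la, Usp17lb and Usp17le and lowest for Usp17lc.

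To compare TPS with EPS cells, counts were added up within each line and 3 TPS lines were set against 3 EPS lines with edgeR's quasi-likelihood test over 17468 genes, with Benjamini-Hochberg adjusted p-values and a threshold of 0.05. All 5 genes passed the filter on low counts and were called higher in TPS lines, where 14.4% of all tested genes were called higher and 7.34% lower. The 5 genes passed the filter through TPS lines alone. In all, 467 tested genes had 3 counts or fewer in every EPS library, as the 5 genes did, and 460 of these (98.5% of the 467, or 2.63% of all tested genes) were called higher, so the count of 5 is a description of where these genes stand. For all 5 the lowest TPS line was above the highest EPS line, which was so for 23.6% of tested genes.

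The fitted log2 fold change was 8.67 for Usp17la (SE 0.814, edgeR adjusted p = 0.00157), 9.34 for Usp17lb (SE 0.707, adjusted p = 0.000784) and 9.01 for Usp17lc (SE 0.676, adjusted p = 0.000784). It was 10.70 for Usp17ld (SE 0.631, edgeR adjusted p = 0.00124) and 9.07 for Usp17le (SE 0.567, adjusted p = 0.000336). With so few EPS counts these fitted values depend on the prior count edgeR adds, so no order of the copies is read from them. The SEs are computed from the fitted values, share this limit and do not bound the size of the difference. The labels do not say whether the lines were derived separately, so the p-values measure the spread between these lines only.

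Ratios of pooled counts, scaled to the pooled TMM library sizes, show how far the depth limits the size of the difference. The ratio of TPS to EPS cells was 486 for Usp17la (95% exact counting interval 134 to 4020), 598 for Usp17lc (165 to 4950), 610 for Usp17le (208 to 2960) and 895 for Usp17lb (160 to 35400). Usp17ld, at 0 in EPS cells, was at least 198-fold higher, computed against a floor of 3 counts over the EPS group, which is 0.0301 CPM. The intervals overlap widely, so no difference in ratio between the copies was detectable at this depth. Intervals and floors cover counting error only, since the libraries carried no molecular identifiers and reads can be copies of one molecule.

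The sum of the 5 genes measured 65.3, 46.4 and 52.5 CPM in TPS lines 1, 2 and 3 (54.7 ± 9.62, SD, n = 3) and 0.0979, 0.0294 and 0.114 CPM in EPS lines 1, 2 and 3 (0.0804 ± 0.0449, SD, n = 3). The pooled ratio was 686, with an exact counting interval of 348 to 1590. The sum does not depend on how reads were divided among these copies. It would still change if reads with several possible places were dropped, counted more than once or placed on another gene. No test was made of it, because the genes were chosen with results known.

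Levels of different genes were compared per kilobase of annotated exon. Usp17le was at 9.17 ± 1.86 CPM per kb (SD, n = 3 TPS lines), Usp17lb at 5.68 ± 1.77, Usp17lc at 4.93 ± 0.6, Usp17la at 3.61 ± 1.65 and Usp17ld at 3 ± 0.0829. Usp17le exceeded Usp17lb within each line (11.2 against 7.68, 7.65 against 4.35 and 8.62 against 5.01 CPM per kb), although its lowest line lay just under the highest of Usp17lb. Usp17lb and Usp17lc, Usp17lc and Usp17la, and Usp17la and Usp17ld did not differ beyond their spread over lines. Usp17lc and Usp17ld, the most alike pair, did not overlap between lines, at 4.28 to 5.45 against 2.92 to 3.09 CPM per kb. The levels per kb take no account of shared stretches, so the order of the copies could differ, above all for this pair.

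Among tested genes these are middling levels. On the same scale, Usp17le was above 74.5%, 66.7% and 69.5% of 17454 genes in TPS lines 1, 2 and 3, and Usp17ld above 45.8%, 46.3% and 47.8%. Usp17la moved most between lines, from above 58.9% of genes in line 1 to above 41.8% in line 2.

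The 3 copies of the distal group and the 2 copies of the proximal pair did not keep one proportion across TPS lines. Usp17la, Usp17lb and Usp17le together made up 74.8% of the counts of the 5 genes in TPS line 1 (1955 of 2613, Wilson 95% interval 73.1 to 76.4), 60.7% in line 2 (1088 of 1792, 58.4 to 63) and 62.8% in line 3 (1038 of 1652, 60.5 to 65.1). The interval of line 1 lies apart from those of lines 2 and 3, which overlap. Technical replicates gave 74% and 75.5% in line 1, 61% and 60.5% in line 2 and 62.8% in both of line 3, so the lines differed by more than their repeats. This comparison is between 3 single lines and has no replicate of its own.

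Taken gene by gene, CPM in TPS line 1 relative to the mean of lines 2 and 3 was 2.04 for Usp17la, 1.64 for Usp17lb and 1.38 for Usp17le, against 0.996 for Usp17ld and 0.813 for Usp17lc. The ratio of the first to the second technical replicate within a TPS line was 1.01 to 1.6 for Usp17la, 0.868 to 1.02 for Usp17lb and 1.01 to 1.07 for Usp17le. The 3 copies that lie near each other on the chromosome were thus all above 1 in line 1, and the other 2 were not. Within the distal group the share of Usp17la ran from 22.2% in line 1 to 13.3% in line 2 of the sum of 5, while the share of Usp17le stayed between 32.6% and 34.2%.

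**Figure D2:**
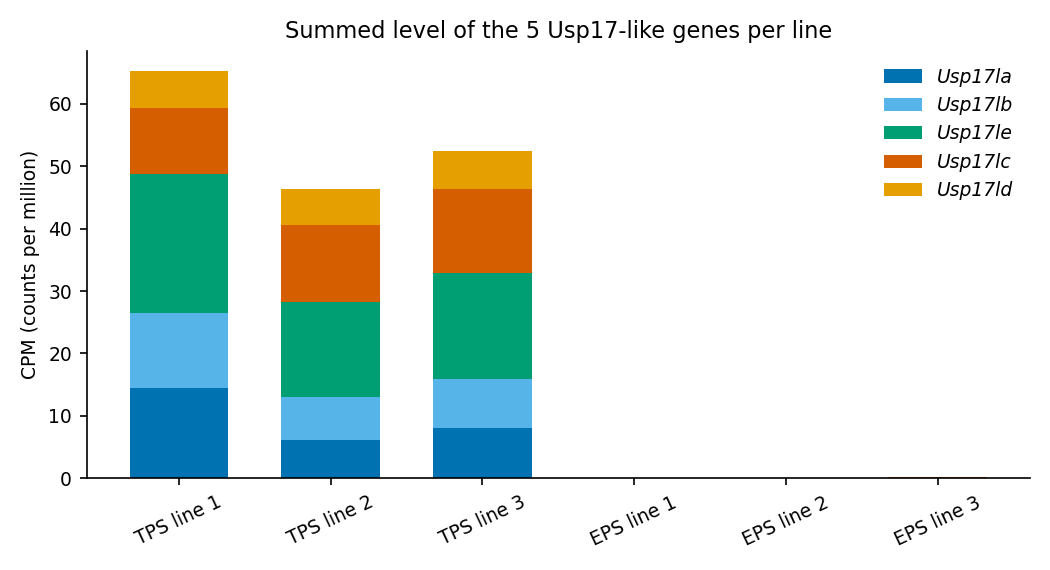
Summed CPM of the 5 Usp17-like genes (y axis) in each TPS and EPS line, as bars from 0 stacked by gene, with no error bars since each bar is 1 line. TPS lines reach 65.3, 46.4 and 52.5 CPM, and the EPS bars (0.0294 to 0.114 CPM) are too low to see. Line 1 is the highest TPS line for Usp17la, Usp17lb and Usp17le and the lowest for Usp17lc.

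The genes around the copies had few or no counts in both kinds of cell. Within 200 kb of a Usp17-like gene the annotation holds 78 other genes, 62 of them with olfactory receptor (Olfr) symbols, and 69 had no count in any library. The highest total of an Olfr gene over the 6 TPS libraries was 8 counts, at Olfr658, and only Gm5900, a processed pseudogene, passed the filter. Gm5900 measured 1.52, 1.48 and 0.381 CPM in TPS lines and 2.06, 0.5 and 2.36 in EPS lines, a log2 difference of -0.53 (edgeR adjusted p = 0.621). Gm25774, a microRNA model that lies within the span of Usp17lc, held 10 counts in TPS and 0 in EPS libraries, and reads from the 2 genes cannot be told apart there. Olfr658 and Gm25774 were singled out after their values were seen.

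**Figure D3:**
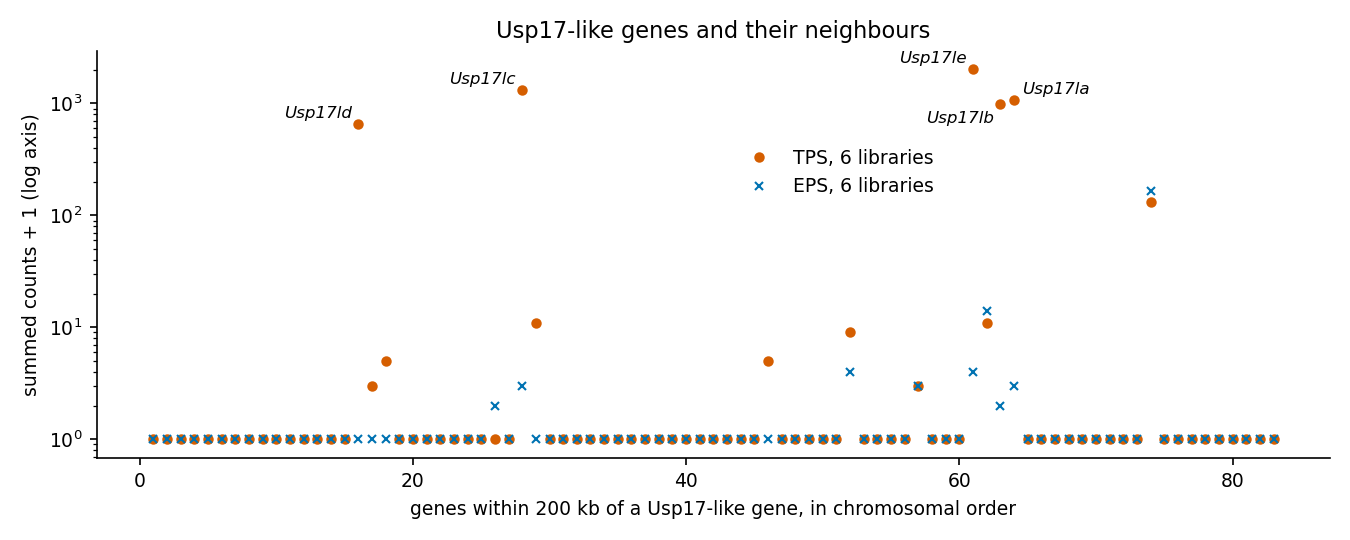
Counts summed over 6 libraries plus 1 (y axis, log axis) for the 5 Usp17-like genes and the 78 genes within 200 kb of them, in chromosomal order (x axis), with TPS as filled circles and EPS as crosses. The 5 genes stand at 655 to 2020 TPS counts, while the neighbours are at 0 or a few counts except Gm5900, with 130 TPS and 163 EPS counts.

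A search of all annotated transcripts for others like the 5 genes, at 80% identity or more over 50% or more of a transcript, found 2 genes. Gm5053 (chr7:108527397-108529074), outside the stretch of the 5 genes, was 91.8% identical over 92.2% of Usp17lb. It measured 1.12, 0.544 and 0.54 CPM in TPS lines and was at 0 in every EPS library, and it was called higher (edgeR adjusted p = 0.0074). Like the 5 genes, Gm5053 passed the filter through TPS lines alone. It belongs to the 467 genes of which 98.5% were called higher, so this call only describes where it stands. As with Usp17lb, TPS line 1 was the highest, and its 83 counts in all could include reads of Usp17lb, or the reverse. The pseudogene Usp17le-ps, 88.4% identical over 53.3% of Usp17lb, had no count in any library.

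Few of the other ubiquitin-specific proteases were called. Of 53 genes with another Usp symbol, among them Usp6nl, which is named for its likeness to a protease, 50 were tested, and 3 were called higher (6%) and 4 lower (8%), with a median log2 fold change of -0.06, against 14.4% higher, 7.34% lower and a median of -0.00 for all tested genes. The share called lower was thus close to that of all genes. Usp25, Usp12 and Usp47 rose by 0.68, 0.64 and 0.50 on the log2 scale (edgeR adjusted p = 0.0332, 0.0168 and 0.0251). Usp11 at -1.14, Usp28 at -0.86 and Usp48 at -0.76 fell (adjusted p = 0.0364, 0.0161 and 0.00818), as did Usp21 at -0.63 (adjusted p = 0.0423). The sums over the list of other Usp genes were 3790 to 3960 CPM in TPS and 4280 to 5030 CPM in EPS lines. The gene with the largest fold change, Usp26, measured 77, 55 and 39.5 CPM in TPS lines and 0.49, 13.1 and 0.598 CPM in EPS lines and did not pass the test (log2 fold change 3.59, edgeR adjusted p = 0.061). Over 17 alternatives the count called higher ran from 0 to 9 and the count called lower from 1 to 15, both highest with the 12 libraries as samples, and DESeq2 called 5 and 5. The calls moved with single lines, to 0 higher without TPS line 1 or 3 and 1 without TPS line 2, and to 1 lower without TPS line 3 and 2 without TPS line 1 or EPS line 2 (edgeR, same threshold). With the line number as a block, 1 was higher and 2 lower. Usp25, Usp12, Usp47, Usp11 and Usp21 were then not called (edgeR adjusted p from 0.0512 to 0.0825). Without composition factors 2 were lower, since Usp11 (adjusted p = 0.0552) and Usp21 (0.105) were not called, and with upper quartile factors 3, without Usp21 (0.0619). Over 17 alternatives Usp48 was called in all, Usp28 in 16, Usp12 in 14, Usp25, Usp47 and Usp11 in 10 each and Usp21 in 7. Usp26 and Usp21 were named after their values were seen.

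**Figure D4:**
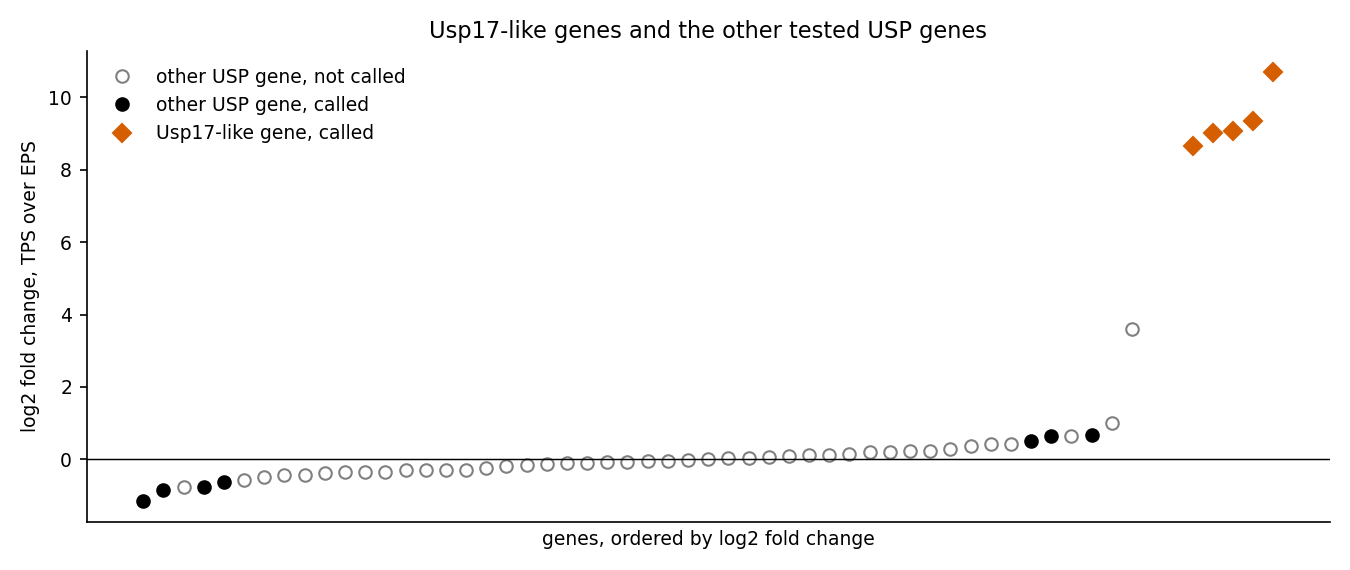
Log2 fold change of TPS over EPS lines (y axis) for the 50 other tested Usp genes (circles, filled where called) and the 5 Usp17-like genes (diamonds), each set in rising order (x axis). The 5 genes lie between 8.67 and 10.70, fitted values against nearly no EPS counts, and the other genes between -1.14 and 3.59.

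The substrate and the targets of these enzymes were read in the same fit. Ubb and Rps27a, genes that encode ubiquitin, had log2 fold changes of -0.12 and -0.53 and did not pass the test (edgeR adjusted p = 0.542 and 0.0526). Rps27a was lower at an unadjusted p under 0.05, and 7 of 17 alternatives, DESeq2 and limma-voom among them, called it lower, while Ubb was called in none. Of 8 genes reported here whose proteins are known as targets of human or mouse USP17 enzymes, 2 were called higher and 0 lower, with a median of -0.27, where 14.4% of all tested genes were called higher and 7.34% lower. Ifih1, which senses viral RNA, measured 17.3, 12.4 and 19.9 CPM in TPS lines and 2.12, 3.68 and 5.86 in EPS lines (log2 fold change 2.09, edgeR adjusted p = 0.0114). Snai1, a repressor of epithelial genes, measured 12, 16 and 16.6 CPM against 2.02, 6.45 and 5.86 (log2 fold change 1.63, adjusted p = 0.0321). Leaving out TPS line 1, 2 or 3 or EPS line 2 or 3 took Snai1 out of the called genes (edgeR adjusted p from 0.0533 to 0.0906), while Ifih1 stayed called without any one line. Markers of feeder fibroblasts moved the same way, with a median log2 fold change of 2.10 over 16 genes and sums of 3520 to 6340 CPM in TPS and 323 to 1390 CPM in EPS lines, and their part in the values of Ifih1 and Snai1 was not tested. The other 6 did not pass the test, although 3 were lower at an unadjusted p under 0.05. DESeq2, the test without a filter, the fit with the line number as a block and the fits without TPS line 3 or EPS line 2 each called 1 of them lower, and the test of 12 libraries as samples called 5. They were the phosphatase Cdc25a at -0.21, the protease Rce1 at -0.28, the RNA sensor Ddx58 at -0.59, the histone gene H2afx at -0.90, the deacetylase Hdac2 at -0.45 and the cyclin Ccna2 at -0.27. RNA levels say nothing of the ubiquitin these proteins carry.

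Duxf3, the mouse Dux gene, was at 2.82, 6.24 and 5.47 CPM in TPS lines and at 0 in every EPS library (edgeR adjusted p = 0.0026). Like the Usp17-like genes, Duxf3 passed the filter through TPS lines alone and belongs to the 467 genes of which 98.5% were called higher. It is a member of a repeated array, so its counts share the doubt of the Usp17-like genes. TPS line 1, the highest line for the sum of the 5 genes, was the lowest for Duxf3. Esrrb, a pluripotency factor, fell by 1.36 on the log2 scale (adjusted p = 0.00219), from 1020, 858 and 845 CPM in EPS lines to 337, 329 and 395 CPM in TPS lines. Sox2 measured 397, 343 and 428 CPM in TPS lines and 580, 607 and 470 in EPS lines and lay just outside the threshold (log2 fold change -0.51, edgeR adjusted p = 0.0507). Of 17 alternatives, 7 called Sox2 lower, DESeq2 and limma-voom among them (adjusted p from 0.000785 to 0.0488), and 10 did not (0.0603 to 0.144), among them the fit with the line number as a block and each fit that left out 1 line other than EPS line 3.

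All 7 genes of a list of 2-cell genes were called higher, and like the Usp17-like genes they had 3 counts or fewer in every EPS library, so they belong to the 467 genes of which 98.5% were called higher. Their sum was 173, 172 and 220 CPM in TPS lines and 0.0979, 0.0589 and 0.0854 CPM in EPS lines. Zscan4c and Zscan4d, which act at telomeres, averaged 89.4 ± 16.7 and 30.5 ± 6.92 CPM in TPS lines (SD, n = 3), and Gm5662 and Gm8300 averaged 44.3 ± 9.54 and 16.9 ± 1.23. Zfp352, Tcstv1 and Tcstv3 were lower, at 2.05 ± 0.637, 2.27 ± 1.49 and 2.54 ± 0.832 CPM. Their level in TPS line 1 relative to the mean of lines 2 and 3 was 0.744 for Zscan4c, 1.04 for Zscan4d, 0.813 for Zfp352, 0.295 for Tcstv1, 1.31 for Tcstv3, 1.02 for Gm5662 and 1.13 for Gm8300. For Zfp352, Tcstv1, Tcstv3 and Gm8300 the ratio of the first to the second technical replicate within a TPS line spread widely, from 0.548 to 1.47, 0.765 to 2.21, 0.723 to 1.04 and 1.03 to 1.31, so their ratios between lines are read with that spread in mind.

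The genes whose log2(CPM + 1) over the 12 libraries was most like that of the sum of the 5 genes, among 17463 others, were Gm8300 (Pearson's r = 0.9992), Stra8 (0.9988), Gm2016 (0.9981), Gm8332 (0.9981) and Gm5662 (0.9979). The libraries form 2 groups and pairs of them share a line, so these values mainly rank how evenly a gene was high in TPS and near 0 in EPS libraries. Stra8, which is known for the entry of germ cells into meiosis and its induction by retinoic acid, measured 75.4, 54.4 and 56.3 CPM in TPS lines and 0.359, 0.294 and 0.0854 in EPS lines. TPS line 1 was the highest for Stra8, Gm8300, Gm2016 and Gm8332, as for the sum of the 5 genes, and line 3 for Gm5662. Over the 6 TPS libraries alone, which are pairs from 3 lines, r was 0.93 for Stra8, 0.72 for Gm8300 and 0.34 to 0.45 for the other 3. Gm8300, Gm2016, Gm8332 and Gm5662 lie on chromosome 12 and Stra8 on chromosome 6.

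Markers of feeder fibroblasts also differed between the groups and between lines. Of 16 fibroblast genes, 11 were called higher in TPS lines and 0 lower, against 14.4% and 7.34% of all tested genes, and only Fap was at 0 in a line, EPS line 1. The count of 11 was 4 without TPS line 1 or EPS line 2 and 6 without TPS line 3. With the line number as a block it was also 4. Their sum was 6340, 3520 and 3670 CPM in TPS lines and 323, 1300 and 1390 CPM in EPS lines. TPS line 1 thus had the highest fibroblast sum and the highest levels of Usp17la, Usp17lb and Usp17le, and the part of feeder RNA in that difference between lines was not tested. In the same order of lines, the sum of the 5 Usp17-like genes was 65.3, 46.4 and 52.5 CPM in TPS and 0.0979, 0.0294 and 0.114 CPM in EPS lines. The part of feeder RNA in this difference between TPS and EPS lines was not tested either, and no library held feeder cells alone. Of 5 pluripotent stem cell genes, Pou5f1, Tdgf1 and Dppa5a fell (7.34% of all tested genes did), and their sum with Sox2 and Zfp42 was 2450 to 2730 CPM in TPS and 4280 to 5720 CPM in EPS lines. No line was at 0 for any of them. The count of 3 that fell was 1 without TPS line 1 and 2 without TPS line 3, EPS line 1 or EPS line 2, and it was 4 without EPS line 3.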

How the data were processed

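RNA-seq of 3 TPS and 3 EPS lines, each with 2 technical replicates, was assigned by the submitters' labels. The authors enriched mRNA with oligo(dT) beads, trimmed reads with fastp 0.19.7, mapped them with STAR 2.7.3a to GRCm38.p6 (mm10, per the labels) and deposited raw counts per gene. The counting tool, annotation, strand and treatment of multi-mapped reads are not given in the sources used here. Of 55401 identifiers, 55141 matched GENCODE M21 without version, and 32608 genes had a count. Technical replicates differed by more than sampling noise (chi-square per degree of freedom 2.58 to 22.3) and were summed per line.

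The 6 lines were tested with edgeR 4.0.16 (R 4.3.3, quasi-likelihood, TMM, filterByExpr with a minimum of 10 counts and 15 in total). Standard errors are the log2 fold change divided by the square root of F. With 10 ways to split 6 lines, no permutation p can be under 0.1. Alternatives were DESeq2 1.42.0, limma-voom (limma 3.58.1), other factors and filters, technical replicates separately, line number as a block, and leaving out each line. Coding sequences came from GENCODE M21 transcripts, promoters from RefSeq, and both were aligned with mafft 7.526. Similar transcripts were found with blastn 2.17.0. Likeness used a pseudocount of 1.

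The members and lists were chosen with earlier results of these data known. Named were the 5 genes, the ubiquitin, target, regulator and 2-cell lists, the 3 called Usp genes with the highest and lowest fold change, tested neighbours within 200 kb, similar genes with a count, and the 5 genes most like the sum. Some genes of the ubiquitin and target lists are not reported here, a choice made without regard to their values, and the counts and medians given are without them.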

Additional observations from a re-analysis of the deposited data

How the results depend on the processing

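All 5 Usp17-like genes stayed called higher in TPS lines under each alternative run, with edgeR log2 fold changes from 7.59 to 11.72 and the largest adjusted p at 0.0142. In the edgeR test of all 6 lines without a block the 5 calls also held at a threshold of 0.01, and with the block Usp17ld, at 0.0142, passed 0.05 but not 0.01. DESeq2 gave adjusted p-values of 6.91e-23 to 4.41e-13 and limma-voom 0.000173 to 0.00117 for the 5 genes. A call was nearly fixed in advance for tested genes as scarce in EPS cells as these, since the main test called 460 of 467. How many of the 467 stayed called under the alternatives is not given here. The steady calls and small p-values thus say little about the 5 genes beyond their near absence from EPS libraries. The ratio of the summed CPM was 686, between 512 and 889 with a line left out and between 608 and 818 with either technical replicate alone. With the line number as a replicate block, 5 of the 5 genes were called (adjusted p 0.0041 to 0.0142), and over all genes 1714 were called higher and 721 lower against 2509 and 1282 without it. Lines of the same number correlated at 0.024, -0.116 and 0.042 in their deviations from the group means, so the data gave no pairing, and whether lines of one number share an origin is not given. Over all tested genes, treating the 12 libraries as samples called 4067 higher and 3610 lower, leaving out TPS line 3 gave 1617 and 493, and DESeq2 3439 and 1658. Without composition factors the median log2 fold change of all genes was 0.14, and 2987 were higher and 745 lower. The 8 EPS counts limit every ratio, and the division of reads among copies could not be checked without the reads.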
